A study of Rattus norvegicus with 9 samples.

Results

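The neuronal intermediate filament genes were Nefl, Nefm, Nefh, Ina and Prph, 5 rows of a count table of 23953 genes, chosen as the gene family that builds the intermediate filaments of nerve cells and not by their values. RNA-seq was done on cultured neural stem cells (NSCs), the progenitors of neurons and glia, which the labels and the study describe as coming from the spinal cords of neonatal rats. All libraries came from NSCs kept in differentiation medium: the Con group had the medium alone, the Exo group also received BMSC-Exos, small vesicles shed by bone marrow mesenchymal stem cells (BMSCs), and in the pLV-Exo-Wnt5a group these vesicles came from BMSCs made to overexpress Wnt5a. By the methods of the study, the donor BMSCs of the Exo group carried an empty lentiviral vector and those of the pLV-Exo-Wnt5a group a vector for rat Wnt5a. Each group had 3 libraries, 9 in all, with 32765138 to 40427647 counts per library, and 1 date is given as the batch of all samples. It is not said whether the libraries of a group came from separate cultures, and p-values then measure only the spread between these libraries.

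Intermediate filaments are the flexible fibres of the cytoskeleton, and each cell type builds them from its own proteins. In neurons, the light, medium and heavy neurofilament proteins (from Nefl, Nefm and Nefh) assemble together with alpha-internexin (Ina) or peripherin (Prph) into filaments that fill axons and set their calibre. Ina is made early in neurons of the central nervous system, Nefl and Nefm follow as axons grow, Nefh comes late with axon maturation, and Prph is best known from motor, sensory and autonomic neurons. Neurofilament light protein released from damaged axons is widely measured as a marker of axonal injury.

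Sequences of the genes were taken from RefSeq for the rat build GRCr8. The build behind the counts is not given in the sources used here, and the table carries mouse symbols and mouse NCBI gene numbers (18039 for Nefl, 18040 for Nefm, 380684 for Nefh, 226180 for Ina and 19132 for Prph). The 250 bases before the annotated start were at hand for 2 of the 5 genes, Ina, with the most counts of the family, and Prph, with few. They are shown because these genes mark different neurons, those of the central and of the peripheral nervous system. Capitals mark matches to TATAAA, a core promoter motif, and to CANNTG, the motif bound by proneural factors, on either strand.
Ina, chr1:255837879-255838128, plus strand: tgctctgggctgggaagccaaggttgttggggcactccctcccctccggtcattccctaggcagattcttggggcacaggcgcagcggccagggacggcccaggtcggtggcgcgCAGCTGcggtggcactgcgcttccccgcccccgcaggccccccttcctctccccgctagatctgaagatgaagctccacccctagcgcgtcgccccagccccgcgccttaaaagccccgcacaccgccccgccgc
Prph, chr7:132097039-132097288, plus strand: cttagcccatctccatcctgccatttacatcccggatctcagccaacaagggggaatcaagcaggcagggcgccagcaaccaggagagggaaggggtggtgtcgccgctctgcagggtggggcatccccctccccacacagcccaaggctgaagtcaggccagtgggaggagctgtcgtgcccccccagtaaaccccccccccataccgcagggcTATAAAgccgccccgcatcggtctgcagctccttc
The Prph window held TATAAA, beginning 35 bases before the start, and the Ina window did not, against 12.9% of the 33469 rat promoters of this length. The Ina window held CANNTG 1 time, as CAGCTG 135 bases before the start, and the Prph window held none, against 65.5% of promoters with a match. The GC-rich motif GGGCGG was found 2 times for Ina and 1 time for Prph, against 30.5% of promoters, and CCAAT was found in neither window, against 34.0%. No match of one motif overlapped a match of another. GC content was 70.8% for Ina and 64.4% for Prph, with a median of 51.2% over the promoters. In the same annotation Nefl and Nefm lie on chromosome 15 with 1 entry, the pseudogene Slc25a3-ps1, between them, while Nefh, Ina and Prph lie on chromosomes 14, 1 and 7.

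All 5 genes passed the filter on low counts in every comparison. Levels are given as CPM, counts scaled to the size of each library with TMM factors over the 9 libraries, and the percentile of a gene is that of its mean log2 CPM among the 15458 genes kept over all 3 groups. By this measure Ina stood at the percentile 95.6, Nefl at 71.7, Nefm at 49.0, Prph at 23.3 and Nefh at 22.2. Gene lengths were not used, so these places also carry the length of each transcript. Depth differed accordingly, from 8128 to 12018 counts per library for Ina and from 1383 to 2468 for Nefl to 53 to 131 for Prph and 50 to 115 for Nefh. Con replicate 1 stood apart from the other libraries, with a mean Euclidean distance of 76.6 on log2 CPM against 59.7 to 66.0, and a TMM factor of 0.965 against 0.996 to 1.02, so the log2FC values against Con are also given without it.

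The labelled cells were checked against marker genes. Pan-neuronal genes were abundant in all libraries, with a summed level of the 10 listed genes from 3186 to 4122 CPM. Of 14 listed Hox genes, which mark the spinal cord and hindbrain, 5 had rows, and none had more than 3 counts in any library, with a summed level of at most 0.052 CPM. Lhx2, a transcription factor of the developing forebrain, had 181 ± 3.36 CPM in Con, 179 ± 5.19 CPM in Exo and 168 ± 16.9 CPM in pLV-Exo-Wnt5a (SD, n = 3 each). Of the 13 listed genes of motor and peripheral neurons, the cells in which peripherin is best known, 11 had rows and their sum was 1.45 to 2.98 CPM. Chat, the enzyme that makes acetylcholine, had a highest group mean of 0.104 CPM, while 3 counts, the upper limit for a gene without counts by counting error alone, corresponded to 0.0742 to 0.0916 CPM. The position genes that could be read thus went against the labelled spinal cord origin, while the listed Hox genes without rows could not be read.

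**Figure D1:**
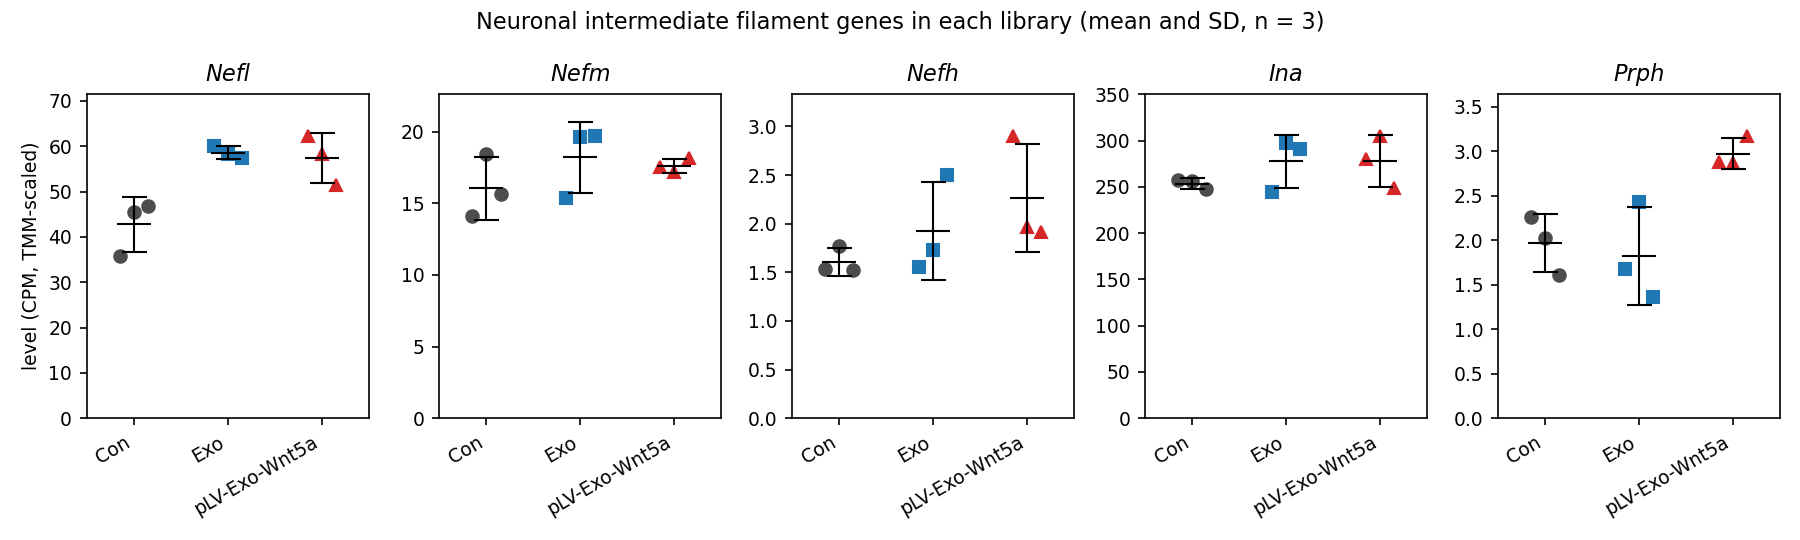
Level of each neuronal intermediate filament gene (CPM, linear axis from 0, a separate scale for each gene) in the 9 libraries; points are libraries, the black bar and whiskers the mean and SD of 3 libraries. All 6 Nefl values with exosomes (51.5 to 62.3) lie above the 3 Con values (35.9 to 46.9), and all 3 Prph values of the pLV-Exo-Wnt5a group (2.87 to 3.17) lie above the other 6.

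Nefl, which encodes the light chain that neurofilaments need for assembly, was measured at 35.9, 45.5 and 46.9 CPM in the Con libraries, at 60.1, 58.4 and 57.3 CPM in the Exo libraries and at 62.3, 58.3 and 51.5 CPM in the pLV-Exo-Wnt5a libraries. The Con libraries were the lowest and overlapped neither of the other groups, whereas the Exo and pLV-Exo-Wnt5a libraries overlapped each other. Group means were 42.8 ± 5.99, 58.6 ± 1.42 and 57.3 ± 5.48 CPM (SD, n = 3 each). The log2FC of Exo versus Con was 0.45 (standard error 0.11, 95% interval 0.21 to 0.69), a 1.36-fold difference that did not pass the test over 15070 genes (unadjusted p = 0.00191, Q = 0.265, quasi-likelihood test in edgeR, adjusted by Benjamini-Hochberg). DESeq2 on the same libraries gave Q = 0.0342, which passed. Against Con, the pLV-Exo-Wnt5a group had a log2FC of 0.42 (standard error 0.12, 95% interval 0.16 to 0.68, unadjusted p = 0.00463, Q = 0.426 in edgeR and 0.178 in DESeq2). Between pLV-Exo-Wnt5a and Exo the log2FC was -0.02 with a 95% interval of -0.19 to 0.15 (edgeR, Q = 0.948). Con replicate 1 was the lowest library, and without it the log2FC was 0.34 for Exo and 0.31 for pLV-Exo-Wnt5a, each against Con. In bulk RNA, more neurons or more Nefl RNA per neuron cannot be told apart.

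Nefm, the medium chain, whose long tail carries phosphorylation sites, had 14.1, 18.4 and 15.6 CPM in the Con libraries, 15.4, 19.6 and 19.7 CPM in the Exo libraries and 17.5, 17.2 and 18.1 CPM in the pLV-Exo-Wnt5a libraries. The groups overlapped in all 3 comparisons. The log2FC was 0.18 for Exo versus Con (95% interval -0.16 to 0.51), -0.04 for pLV-Exo-Wnt5a versus Exo (-0.30 to 0.22) and 0.13 for pLV-Exo-Wnt5a versus Con (-0.17 to 0.42), with Q from 0.563 to 0.936 in edgeR. Without Con replicate 1 the values against Con were 0.09 for Exo and 0.05 for pLV-Exo-Wnt5a. Over the fits without 1 library, Exo versus Con ran up to 0.29 (without Exo replicate 1) and pLV-Exo-Wnt5a versus Con up to 0.24 (without Con replicate 2).

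Nefh, the heavy chain of mature axons, had few counts. It was measured at 1.53, 1.77 and 1.52 CPM in the Con libraries, 1.55, 1.73 and 2.50 CPM in the Exo libraries and 2.90, 1.97 and 1.91 CPM in the pLV-Exo-Wnt5a libraries. The pLV-Exo-Wnt5a libraries were all above the Con libraries, and in each exosome group 1 library stood above the others. The log2FC of pLV-Exo-Wnt5a versus Con was 0.48 (standard error 0.28, 95% interval -0.12 to 1.09, unadjusted p = 0.107, Q = 0.662 in edgeR), and it was 0.26 without pLV-Exo-Wnt5a replicate 1 and 0.46 without Con replicate 1. Exo versus Con gave 0.25 and pLV-Exo-Wnt5a versus Exo 0.24, with 95% intervals from -0.37 to 0.87 and from -0.38 to 0.86. Exo versus Con gave 0.22 without Con replicate 1, 0.39 without Exo replicate 1 and 0.03 without Exo replicate 3, and pLV-Exo-Wnt5a versus Exo gave 0.47 when Exo replicate 3 was left out and 0.03 without pLV-Exo-Wnt5a replicate 1.

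Ina, the alpha-internexin gene of early central neurons, had 258, 256 and 247 CPM in the Con libraries, 244, 298 and 291 CPM in the Exo libraries and 280, 305 and 249 CPM in the pLV-Exo-Wnt5a libraries. All groups overlapped, since Exo replicate 1 and pLV-Exo-Wnt5a replicate 3 lay at the Con level. The log2FC was 0.12 for Exo versus Con and 0.12 for pLV-Exo-Wnt5a versus Con, with 95% intervals of -0.08 to 0.32 and -0.08 to 0.32, and 0.01 (-0.19 to 0.21) for pLV-Exo-Wnt5a versus Exo (edgeR, Q from 0.509 to 0.977). Without Con replicate 1 the values against Con were 0.13 for Exo and 0.14 for pLV-Exo-Wnt5a. Exo versus Con was 0.21 without Exo replicate 1 (unadjusted p = 0.0231, Q = 0.571 in edgeR) and 0.06 without Exo replicate 2, and pLV-Exo-Wnt5a versus Con ran from 0.06 to 0.20, with its replicate 2 and its replicate 3 left out in turn. The Nefl intervals against Con, 0.21 to 0.69 for Exo and 0.16 to 0.68 for pLV-Exo-Wnt5a, overlapped these Ina intervals. The difference between the genes was tested only through their count ratio.

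Prph, the peripherin gene, had 2.26, 2.03 and 1.61 CPM in the Con libraries, 1.68, 2.43 and 1.36 CPM in the Exo libraries and 2.88, 2.87 and 3.17 CPM in the pLV-Exo-Wnt5a libraries. Here the pLV-Exo-Wnt5a libraries were the highest and overlapped neither of the other groups, while Con and Exo overlapped. The log2FC of pLV-Exo-Wnt5a was 0.72 against Exo (standard error 0.26, 95% interval 0.15 to 1.28, unadjusted p = 0.0176, Q = 0.298) and 0.58 against Con (standard error 0.24, 95% interval 0.06 to 1.11, unadjusted p = 0.0330, Q = 0.576), neither of which passed in edgeR, and in DESeq2 Q was 0.179 and 0.580. Exo versus Con gave -0.12 (95% interval -0.77 to 0.53). Without Con replicate 1, Exo versus Con gave -0.00745 and pLV-Exo-Wnt5a versus Con 0.70. Against Exo the log2FC was 0.55 without Exo replicate 3 and 0.98 without Exo replicate 2. Marker lists of other cells were set beside these values. The 8 microglia and macrophage genes summed to 6.86 to 8.61 CPM in Con, 4.32 to 5.33 CPM in Exo and 7.05 to 9.21 CPM in pLV-Exo-Wnt5a, where Csf1r, the receptor of macrophage growth factors, had 13 to 105 counts per library and P2ry12, Ptprc and Tmem119 were at 0 in some libraries, so that Con and pLV-Exo-Wnt5a overlapped and Exo was lowest. All 5 microglia genes tested had a log2FC above 0 in pLV-Exo-Wnt5a versus Exo (median 0.65, 2 higher at an unadjusted p under 0.05 against 5.07% of all genes in edgeR, 1 called by DESeq2), and all 5 were below 0 in Exo versus Con (median -0.45, 2 lower against 6.01%). The 8 astrocyte genes summed to 4176 to 5003, 4096 to 4225 and 5716 to 6045 CPM, with Gfap at a group mean of 4027 CPM in pLV-Exo-Wnt5a. In pLV-Exo-Wnt5a versus Exo 6 of these 8 had a log2FC below 0, with 2 higher and 4 lower at an unadjusted p under 0.05 (5.07% and 6.91% of all genes) and a median of -0.19 (edgeR), so the sum followed Gfap and not most of the list. The 11 motor and peripheral neuron genes summed to 1.45 to 2.47, 2.04 to 2.13 and 2.37 to 2.98 CPM, with Con and pLV-Exo-Wnt5a overlapping, and 4 of them were tested. In pLV-Exo-Wnt5a versus Con all 4 had a log2FC above 0 (median 0.73), and 0 were higher at an unadjusted p under 0.05 in edgeR (4.2% of all genes). In pLV-Exo-Wnt5a versus Exo all 4 were also above 0, and their median log2FC was 0.38. There 1 was higher at an unadjusted p under 0.05 (5.07% of all genes), Slc18a3, the vesicular acetylcholine transporter, with 2.00 (unadjusted p = 0.00665, Q = 0.199 in edgeR). It rested on 5 to 9 counts per library in Exo and 10 to 44 in pLV-Exo-Wnt5a, and the latter overlapped Con. Their part in the Prph values was not tested.

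**Figure D2:**
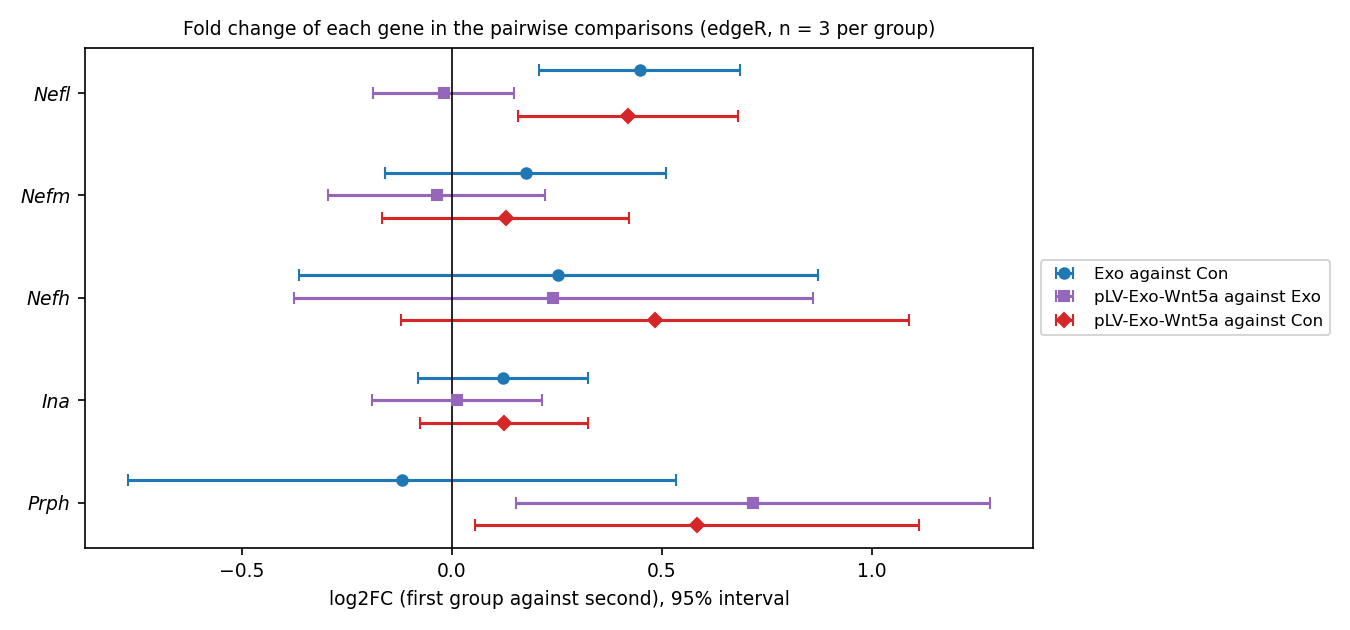
Log2FC of the 5 genes in the 3 pairwise comparisons, with 95% intervals from edgeR's quasi-likelihood fit (n = 3 libraries per group). The Nefl intervals against Con (0.21 to 0.69 and 0.16 to 0.68) and the Prph intervals of the pLV-Exo-Wnt5a group (0.15 to 1.28 and 0.06 to 1.11) lie above 0, and all others include 0.

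Counted over the family, 0 of 5 genes had Q under 0.05 in any comparison in edgeR, where 0.00664% of genes passed for Exo versus Con, 0.436% for pLV-Exo-Wnt5a versus Exo and 0.0862% for pLV-Exo-Wnt5a versus Con. DESeq2 called 1 of 5 for Exo versus Con (Nefl), where it called 1.4% of genes and gave Nefh no Q, and 0 in the other comparisons (2.72% and 0.477% of genes). At an unadjusted p under 0.05 in edgeR, 1 of 5 was higher in Exo than in Con (Nefl; 8.92% of genes), 1 in pLV-Exo-Wnt5a than in Exo (Prph; 5.07%) and 2 in pLV-Exo-Wnt5a than in Con (Nefl and Prph; 4.2%). Libraries did not overlap, with the first group higher, for 1 of 5 genes in Exo versus Con (10.9% of genes), for 1 in pLV-Exo-Wnt5a versus Exo (7.5%) and for 3 in pLV-Exo-Wnt5a versus Con (7.67%). The median log2FC of the 5 genes was 0.18, 0.01 and 0.42 in these comparisons, and that of all genes tested was 0.00 in each. The 3 comparisons share libraries, so that a low Con library enters both comparisons with Con.

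The spread between libraries differed from gene to gene. Nefl in the Exo group varied by 2.42% (coefficient of variation), close to the 2.08% that counting alone gives, whereas in the Con group it varied by 14.0% against 2.53%. Ina, with the most counts, varied by 2.18% in Con but by 10.4% in Exo and 10.2% in pLV-Exo-Wnt5a, against counting errors of 0.954% and 0.961%. Nefm varied by 13.7% in Con and 13.6% in Exo and by 2.72% in pLV-Exo-Wnt5a. For Prph the spread was 5.80% in the pLV-Exo-Wnt5a group, below its counting error of 9.26%, and 29.9% in the Exo group. For Nefh it ran from 8.82% in Con, below the counting error of 13.0%, to 26.2% in Exo.

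The make-up of the family was compared by the ratio of 2 counts within a library, which does not depend on how libraries are scaled. There were 7.18, 5.63 and 5.27 Ina counts for each Nefl count in the Con libraries, 4.06, 5.10 and 5.07 in the Exo libraries and 4.49, 5.24 and 4.83 in the pLV-Exo-Wnt5a libraries. Every Con library had a higher ratio than every library with exosomes. The log2 ratio was lower by 0.34 in Exo (-0.34) and by 0.30 in pLV-Exo-Wnt5a (-0.30) than in Con (exact permutation test over 20 assignments, two-sided, p = 0.1 for both, the smallest p that 3 libraries against 3 allow; 0.45 after adjustment over 9 ratio tests). Without Con replicate 1 the differences were -0.21 and -0.17. The Nefm to Nefl ratio was 0.393, 0.405 and 0.334 in Con, 0.255, 0.336 and 0.344 in Exo and 0.281, 0.295 and 0.353 in pLV-Exo-Wnt5a, with overlapping groups (exact permutation p = 0.3 and 0.2 against Con). The Nefh to Nefl ratio overlapped in all comparisons (exact permutation p from 0.4 to 0.9). Between pLV-Exo-Wnt5a and Exo, the log2 ratios differed by -0.00311 for Nefm, 0.27 for Nefh and 0.04 for Ina (exact permutation p = 1, 0.4 and 0.8).

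**Figure D3:**
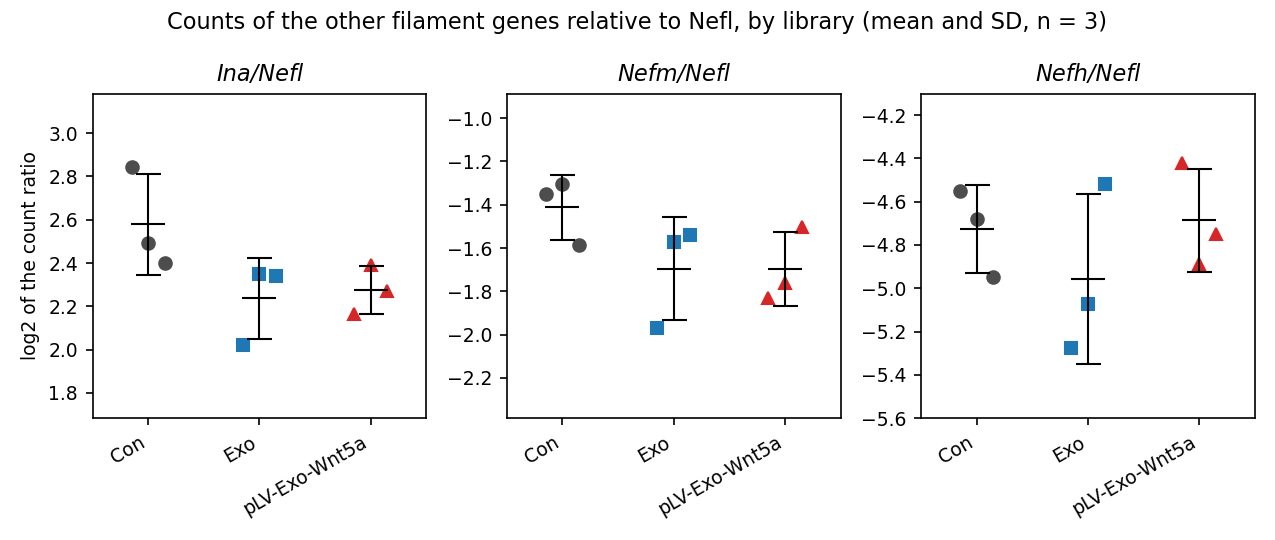
Log2 of the count ratio of Ina, Nefm and Nefh to Nefl in each library; the axes span the same range of log2 units around different centres, points are libraries, and the black bar and whiskers give the mean and SD of 3 libraries. The Con values of Ina/Nefl lie above those of both exosome groups, while the groups overlap for Nefm/Nefl and Nefh/Nefl.

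The members were compared in pairs across the 9 libraries. Of the 10 pairs, the 6 among Nefl, Nefm, Nefh and Ina had Pearson's r from 0.472 to 0.558, and Spearman's coefficient from 0.15 to 0.567. None passed an exact permutation test (Pearson's p from 0.116 to 0.198, adjusted p from 0.291 to 0.331 over 10 pairs; Spearman's adjusted p from 0.575 to 0.787). The 4 pairs with Prph had r from 0.0815 to 0.209 and Spearman's coefficient from -0.0167 to 0.383 (exact permutation p from 0.578 to 0.836 for r, adjusted p from 0.740 to 0.836; for Spearman's coefficient adjusted p from 0.625 to 0.982). After leaving out the 2 libraries farthest from the median of the first gene, r was 0.245 to 0.540 for the 6 pairs, and it ran from -0.135 to 0.835 for those with Prph, the highest for Nefh and Prph. Centred on the group means, the 6 pairs had r from 0.0922 to 0.481 and those with Prph from -0.402 to 0.127. As a description, r was also ranked among all other genes kept. For Nefh, the percentiles of r were 95.3 (Nefl), 95.4 (Nefm) and 94.3 (Ina). For Nefm they were 91.4 (Nefl), 92.4 (Nefh) and 92.2 (Ina). For Ina they were 87.6 (Nefl), 90.9 (Nefm) and 90.0 (Nefh). For Nefl they were 76.2 (Nefm), 77.1 (Nefh) and 72.0 (Ina). Prph stood at 51.4 for Nefl and 72.5 for Ina.

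The genes whose log2 CPM over the 9 libraries was most like that of each member were looked up among the other 15457 genes, as a description. For Nefl these were Syt16, a synaptotagmin-like protein (r = 0.992), App, the amyloid precursor protein (r = 0.986), and Cpne8 of the copine family (r = 0.985). App ran from 562 to 647 CPM in Con and from 673 to 745 CPM in the 6 libraries with exosomes, without overlap. It was picked for its likeness to Nefl over these same libraries, so this adds no separate support. For Ina they were Arf3, a small GTPase of vesicle traffic (r = 0.987), Syngr1, a synaptic vesicle protein (r = 0.974), and Nsg1, a neuronal endosomal protein (r = 0.973). For Nefm they were Lhx1, a LIM homeobox transcription factor (r = 0.936, at 0.73 CPM on average), Ndnf (r = 0.929) and Zhx3 (r = 0.920), and for Nefh they were Myo1c, an unconventional myosin (r = 0.931), Haus8 (r = 0.898) and Ksr2 (r = 0.887). For Prph they were Jak3, a cytokine receptor kinase (r = 0.959), Cxcl10, an interferon-induced chemokine (r = 0.945), and Serping1, the C1 inhibitor (r = 0.927). No member was among the 3 genes most like another member.

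The proteins that phosphorylate, carry and turn over neurofilaments were followed in lists chosen with the members. Of 15 kinases and phosphatase subunits, 0 passed Q in any comparison in edgeR or DESeq2, and 5 were higher in Exo than in Con at an unadjusted p under 0.05, against 8.92% of all genes. These included Rock2, a kinase that acts on the actin cytoskeleton (log2FC 0.82, Q = 0.279), Mapk8, the stress kinase JNK1 (0.51, Q = 0.302), and Gsk3b (0.32, Q = 0.304). In pLV-Exo-Wnt5a versus Exo, 2 of the 15 were lower and 0 higher, against 6.91% of all genes, and against Con 1 was higher (4.2%). Of 10 transport motors and linkers, 0 passed Q in edgeR. Myo5a, the myosin V motor that binds Nefl protein, had a log2FC of 0.47 for Exo versus Con (Q = 0.277) and -0.51 for pLV-Exo-Wnt5a versus Exo (Q = 0.0725 in edgeR and 0.00179 in DESeq2). In that comparison Macf1, a linker of microtubules and actin, had -0.25 (Q = 0.314), and Kif5a, the neuronal kinesin that moves neurofilaments, had 0.22 against Con (Q = 0.595). Counted at an unadjusted p, 1 of the 10 was higher in Exo than in Con, 2 were lower in pLV-Exo-Wnt5a than in Exo and 1 was higher in pLV-Exo-Wnt5a than in Con; DESeq2 called Myo5a alone. Of the 9 genes of turnover, chaperones and RNA binding, 8 or 9 were tested and 0 passed Q in edgeR or DESeq2; at an unadjusted p 1 was higher and 1 lower (6.01% of all genes were lower) in Exo versus Con, 2 were lower in pLV-Exo-Wnt5a versus Exo and 0 passed against Con (4.15% were lower). Trim2, a ubiquitin ligase known to act on Nefl protein, had 0.55 for Exo versus Con and -0.42 for pLV-Exo-Wnt5a versus Exo (Q = 0.310 and 0.257 in edgeR). Stub1, a ubiquitin ligase that works with chaperones, had -0.23 for Exo versus Con, and Ogt, which adds sugar to proteins, had -0.24 for pLV-Exo-Wnt5a versus Exo (Q = 0.297 and 0.402 in edgeR).

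**Figure D4:**
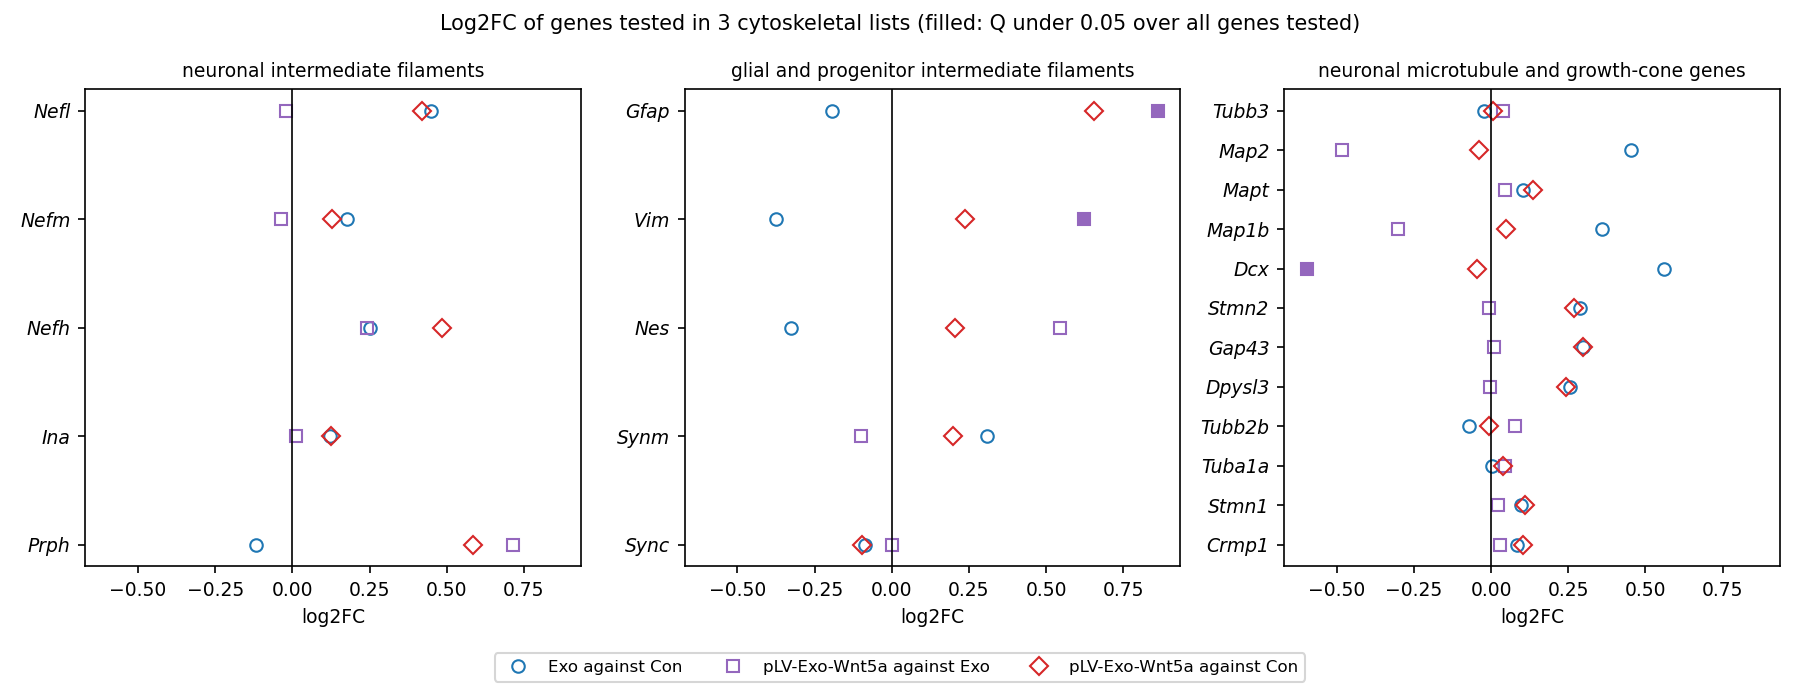
Log2FC of the tested genes of 3 cytoskeletal lists in the 3 pairwise comparisons; marker shape and colour give the comparison, and filled markers have Q under 0.05 over all genes tested in edgeR. The filled markers belong to Gfap, Vim and Dcx in pLV-Exo-Wnt5a versus Exo, and no neuronal intermediate filament gene has one.

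The filament genes of glia and progenitors were set beside the neuronal ones. Gfap and Vim were followed from Exo to pLV-Exo-Wnt5a. Gfap, the astrocyte filament gene, rose with a log2FC of 0.86 (Q = 3.36e-05) and Vim, the filament gene of progenitors and glia, with 0.62 (Q = 0.0389). These were 2 of 5 tested genes in edgeR, against 0.436% of all genes. The 5 neuronal genes had log2FC values in that comparison of -0.02 (Nefl), -0.04 (Nefm), 0.24 (Nefh), 0.01 (Ina) and 0.72 (Prph). Against Con, 0 of the 5 tested glial and progenitor genes passed Q in edgeR. At an unadjusted p under 0.05 in edgeR, 2 of these were lower in Exo (6.01% of all genes) and 1 was higher in pLV-Exo-Wnt5a (4.2%). DESeq2 called 1 in pLV-Exo-Wnt5a versus Con (0.477% of all genes). Vim had 1573 to 1976 CPM in Con and 1698 to 2359 CPM in pLV-Exo-Wnt5a, which overlapped. The group means of Prph, Gfap and Vim were lowest in Exo and highest in pLV-Exo-Wnt5a, and over the 9 libraries, which share these groups, the log2 CPM of Prph had r = 0.823 with Gfap, 0.665 with Vim and 0.454 with Nes, as a description. The other tested genes of that list had r = -0.00081 (Synm) and -0.196 (Sync) with Prph, and among the other 7 astrocyte genes r was 0.262 for Aldh1l1 and ran from -0.504 (Fgfr3) to -0.0177 (Aqp4) for the rest. Among 12 neuronal microtubule and growth-cone genes, Dcx, which binds microtubules in young neurons, was lower in pLV-Exo-Wnt5a than in Exo by 0.60 on the log2 scale (Q = 0.0113). In this comparison Map2 and Map1b had -0.48 and -0.30 with Q of 0.0759 and 0.0755 in edgeR, and passed in DESeq2. Exo had the highest group mean of Dcx, Map2 and Map1b. Group means in Con, Exo and pLV-Exo-Wnt5a were 74.8, 111 and 72.6 CPM for Dcx and 143, 196 and 139 CPM for Map2. For Map1b they were 528, 682 and 548 CPM. In pLV-Exo-Wnt5a versus Exo, 7 of the 12 genes had a log2FC above 0 and the median was 0.02. For Exo versus Con, 6 of these 12 genes were higher at an unadjusted p (8.92% of all genes), among them Stmn2 (0.29) and Gap43 (0.30), and 0 passed Q in edgeR or DESeq2. Whether the lists differed from the neuronal filament genes was not tested.

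Pan-neuronal genes were set beside the Nefl values. The 10 genes summed to 3503 to 3758 CPM in Con, 3354 to 3944 CPM in Exo and 3186 to 4122 CPM in pLV-Exo-Wnt5a, and these ranges overlapped. The largest part of the sum was Tubb3, the neuronal tubulin, with a group mean of 1794 CPM in Con, and for Exo versus Con 7 of the 10 genes had a log2FC above 0, with a median of 0.15. Tubb3 had a log2FC of -0.02 for Exo versus Con, Rbfox3, which encodes NeuN, had 0.01 and Syp, a synaptic vesicle protein, had 0.03 (Q from 0.885 to 0.974 in edgeR). Snap25, a protein of transmitter release, had 0.66 (Q = 0.265 in edgeR and 0.0316 in DESeq2) and Syt1, the calcium sensor of synaptic vesicles, had 0.44 (Q = 0.290). At an unadjusted p, 4 of the 10 were higher in Exo than in Con (8.92% of all genes), 2 were lower in pLV-Exo-Wnt5a than in Exo (6.91%) and 1 was higher in pLV-Exo-Wnt5a than in Con (4.2%); 0 passed Q in edgeR, and DESeq2 called Snap25 and, lower in pLV-Exo-Wnt5a than in Exo, Map2. Over the 9 libraries, the log2 CPM of Nefl had r from -0.0938 (Tubb3) to 0.966 (Snap25) with the 10 genes, as a description. Among them r was 0.892 for Syt1, 0.650 for Map2, 0.249 for Rbfox3 and 0.0303 for Syp. The part of these genes in the Nefl values was not tested.

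Other lists of cell markers were compared with Con in the same way. The 8 oligodendrocyte lineage genes summed to 2159 to 2381 CPM in Con, 1996 to 2201 CPM in Exo and 1934 to 2150 CPM in pLV-Exo-Wnt5a, and of the 7 tested, 0 were higher and 2 lower at an unadjusted p under 0.05 against Con in each exosome group. The 8 proliferation and neural stem cell genes summed to 772 to 899, 792 to 1053 and 774 to 953 CPM, with 0 higher in either group against Con and 2 lower in Exo and 1 in pLV-Exo-Wnt5a. The 8 fibroblast and mesenchymal genes summed to 149 to 175, 155 to 164 and 135 to 148 CPM, with 0 higher and 1 lower in Exo versus Con and 1 of each in pLV-Exo-Wnt5a versus Con. Of all genes, 6.01% and 4.15% were lower against Con at this p. Between pLV-Exo-Wnt5a and Exo, 1 gene was higher in each of these lists (5.07% of all genes), and 1, 0 and 2 were lower (6.91%). In edgeR 0 genes of these lists passed Q in any comparison, and DESeq2 called 0 to 2 of each, against 1.4% of all genes for Exo versus Con, 2.72% for pLV-Exo-Wnt5a versus Exo and 0.477% for pLV-Exo-Wnt5a versus Con. Hes5, a Notch effector of neural progenitors, had group means of 168 ± 14.7, 137 ± 3.57 and 128 ± 1.79 CPM and Pdgfrb, a receptor of pericytes and mesenchymal cells, 17.2 ± 2.98, 10.4 ± 0.444 and 10.8 ± 0.818 CPM in Con, Exo and pLV-Exo-Wnt5a (SD, n = 3 each), both without overlap between Con and the exosome groups. Over the 9 libraries their log2 CPM had r = -0.888 and -0.919 with that of Nefl, and Sox10 of the oligodendrocyte lineage had r = -0.856, as a description. Their part in the values of the filament genes was not tested.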

How the data were processed

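RNA-seq counts of 9 NSC libraries were used, 3 for each of Con, Exo and pLV-Exo-Wnt5a, with groups from the sample labels and columns matched by library name. The deposited table gives a whole-number count for each gene and library, which the authors had not normalized. The methods of the study name HISAT2, while the submitters' processing notes name Bowtie2, RSEM 1.3.1 and DESeq2 1.4.5, and the build and the handling of reads shared between genes are not given in the sources used here. How shared reads were counted could move the values of related genes.

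For each comparison, its 2 groups were filtered with filterByExpr, TMM factors were computed and edgeR 4.0.16 (R 4.3.3) gave quasi-likelihood tests, with Q adjusted by Benjamini-Hochberg over all genes tested and called under 0.05. Adding the study's fold change limit (above 2 or below 0.5) would call none of the 5 genes, while the study's second, looser limit for pLV-Exo-Wnt5a versus Exo, on the unadjusted p and fold change, was met by Prph alone. DESeq2 1.42.0 was the alternative. The standard error came from the test statistic, and 95% intervals used the degrees of freedom of the fit. Log2 CPM had a prior count of 2. Depth of 32765138 to 40427647 counts put 3 counts at 0.0742 to 0.0916 CPM. The fit of pLV-Exo-Wnt5a versus Exo was tested on simulated data.

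The members and lists (neuronal, glial and progenitor filaments; kinases, motors and turnover genes; microtubule, pan-neuronal, motor neuron, astrocyte, oligodendrocyte, stem cell, microglia, fibroblast and Hox genes) were chosen with earlier results of these data known. Named genes were the 5 members, up to 3 genes per list by smallest p, or those with Q under 0.05, the 3 genes most like each member and the position markers, of which 1 item is not reported here. Map1b, Map2, Stmn2, Gap43, Syp, Tubb3, Rbfox3, Synm, Sync, Aldh1l1, Fgfr3, Aqp4, Csf1r, P2ry12, Ptprc and Tmem119 were named after their values were seen. Other alternatives were RLE, other filters, a fit on all 9 libraries, a replicate block and leaving out each library.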

Additional observations from a re-analysis of the deposited data

How the results depend on the processing

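RLE normalization, at least 10 counts in every library, the fit on all 9 libraries and the replicate block left each log2FC of the 5 genes with the same direction and the same side of the threshold. Nefl for Exo against Con passed Q with DESeq2 (log2FC 0.45, Q = 0.0342) and without the filter on low counts (log2FC 0.45, Q = 0.0295), and the cause was not tested. It passed without Con replicate 3 (Q = 0.0470), and its log2FC was 0.34 to 0.51 over the 6 fits without 1 library, with an unadjusted p under 0.05 in all 6 and Q from 0.0470 to 0.571. Where Nefl passed, many other genes passed too. Genes with Q under 0.05 were 211 of 15070 with DESeq2, 446 of 23057 without the filter and 371 of 15449 without Con replicate 3. The main fit had 1 of 15070. Leaving out 1 library turned the direction for Prph in Exo against Con (-0.390 to 0.0600), and in pLV-Exo-Wnt5a against Exo for Nefl (-0.0797 to 0.0450), Nefm (-0.15 to 0.0246) and Ina (-0.0777 to 0.0787), and for the log2 count ratios to Nefl of Nefm (-0.14 to 0.0737) and Ina (-0.0701 to 0.0937). The ratio of Nefh turned in pLV-Exo-Wnt5a against Con (-0.0916 to 0.14). Prph had an unadjusted p under 0.05 in 4 of 6 such fits for pLV-Exo-Wnt5a against Exo (log2FC 0.55 to 0.98) and in 2 of 6 against Con (0.46 to 0.70). Scaling by library totals kept the direction of all 10 correlations. Deviations of libraries with the same number were not shared (r from -0.201 to 0.0634 over 9 pairs), and the numbers are taken as names. With the replicate block Nefl had a log2FC of 0.46 for Exo against Con (Q = 0.518) and Prph 0.75 for pLV-Exo-Wnt5a against Exo (Q = 0.280). For Nefh and Prph, with 50 to 131 counts per library, counting alone gave a coefficient of variation of 9.26% to 13.0%, which limits what could be seen.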
